A study of Mus musculus with 12 samples.

Results

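Kidney RNA amplified from 10 ng was set against a universal mouse reference RNA amplified from 0.3 ng, so that tissue and input differed together. The 3 kidney arrays and the 3 reference arrays at 0.3 ng were picked by their titles, and they make up 6 of the 12 arrays of the series. The kidney RNA is total RNA sold by Ambion. The reference RNA, from a supplier the labels spell Strategene, is a commercial pool of RNA from mouse cell lines, and it was also measured at 10 and 3 ng (3 arrays each), which served here for comparison. The titles of all 12 arrays carry the code pRS, which the labels do not explain, and the sources used here give no strain, sex or age of the kidney donors. Whether replicate arrays stand for different animals, RNA preparations or amplifications is left unsaid in the labels, so the p-values cover array-to-array spread alone, which may be technical.

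The kidney filters blood in the glomerulus and then recovers salts, water, sugars and amino acids along the proximal tubule, the loop of Henle, the distal tubule and the collecting duct, each lined by its own cells with their own transporters. Its proximal tubule runs largely on fatty acid oxidation and makes glucose from lactate and amino acids. Cultured lines instead divide without pause, and many secrete matrix proteins. In bulk RNA such as this, fewer cells of a type and less RNA per cell cannot be told apart.

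Values are deposited linear intensities, 1 for each probe set (a group of short probes for 1 transcript), scaled to a common trimmed mean of 500. Signal under 33.65, the background level taken from bacterial control probe sets, was counted as not above background. Signals scattered far more at 0.3 ng. The median SD of log2 signal over the 27022 tested probe sets, which passed a signal filter, was 0.69 in the 0.3 ng reference. It was 0.26 in kidney, 0.24 in the 10 ng reference and 0.31 at 3 ng. Pairs of 0.3 ng arrays correlated across these probe sets at Pearson's r of 0.827 to 0.863, and pairs of 10 ng reference arrays at 0.963 to 0.965. Over all probe sets except controls, 40.4 to 42.4% lay under background on the 0.3 ng arrays. The kidney arrays had 38.0 to 39.6% and the 10 ng reference arrays 35.4 to 36.3%. The ratio of 3′ to 5′ actin control signal was 5.25 to 5.50 on the kidney arrays and 3.47 to 3.96 on the reference arrays at all inputs. The same ratio for Gapdh was 1.12 to 1.13 and 1.10 to 1.19. The part of RNA quality in the kidney differences was not tested.

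Of 27022 probe sets tested by limma, 9414 differed between kidney and the 0.3 ng reference at an adjusted p under 0.05 (34.8%), 4904 higher and 4510 lower in kidney. Counted by gene, with 1 probe set for each of 12820 genes, 2676 were higher (20.9%) and 2139 lower (16.7%). With the reference at 10 ng, 16246 probe sets were called (60.1%). By gene this was 27.1% higher and 35.6% lower. Of the 16246 calls 38.2% were higher in kidney, and 49.1% with arrays centred on their medians. Both comparisons use the same 3 kidney arrays. The median standard error of a log2 difference was 0.447 against the 0.3 ng reference and 0.232 against the 10 ng reference. Without any 1 kidney array the 0.3 ng comparison called 5516 to 5549 probe sets, and without any 1 of the 0.3 ng arrays 9060 to 10245. The 0.3 ng reference itself differed from the 10 ng reference in 215 probe sets (0.796%), of which 206 were lower at 0.3 ng. None of these passed when any 1 of the 10 ng arrays was left out (limma, 2479 to 2666 probe sets at an unadjusted p under 0.05), while leaving out 1 of the 0.3 ng arrays gave 294 to 595. The median log2 change of all tested probe sets from 10 to 0.3 ng was -0.23. It became 0.20 with arrays centred on their medians and -0.08 under quantile normalization. With such centring 69 of 79 calls were lower at 0.3 ng.

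Genes of the tubule, from the proximal part to the collecting duct, were readable against subnanogram reference RNA. All 33 tested proximal tubule genes were called higher in kidney, with a median log2 difference of 7.49 (6.80 with values under background raised to it) beside 0.05 over all genes. In the loop and distal tubule 17 of 18 genes were called higher, with a median of 6.45 (5.51 with raised values), and in the collecting duct 19 of 20, with a median of 4.17 (3.38). No gene of the 3 lists was called lower, and at 10 ng all were called higher. Over all genes 20.9% were called higher at 0.3 ng and 27.1% at 10 ng. In the 0.3 ng reference 7 proximal tubule, 11 loop and distal tubule and 6 collecting duct genes lay under background on every array. The summed proximal tubule signal was 206310 to 213151 on the kidney arrays and 2520.3 to 3036 on the 0.3 ng arrays.

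**Figure D1:**
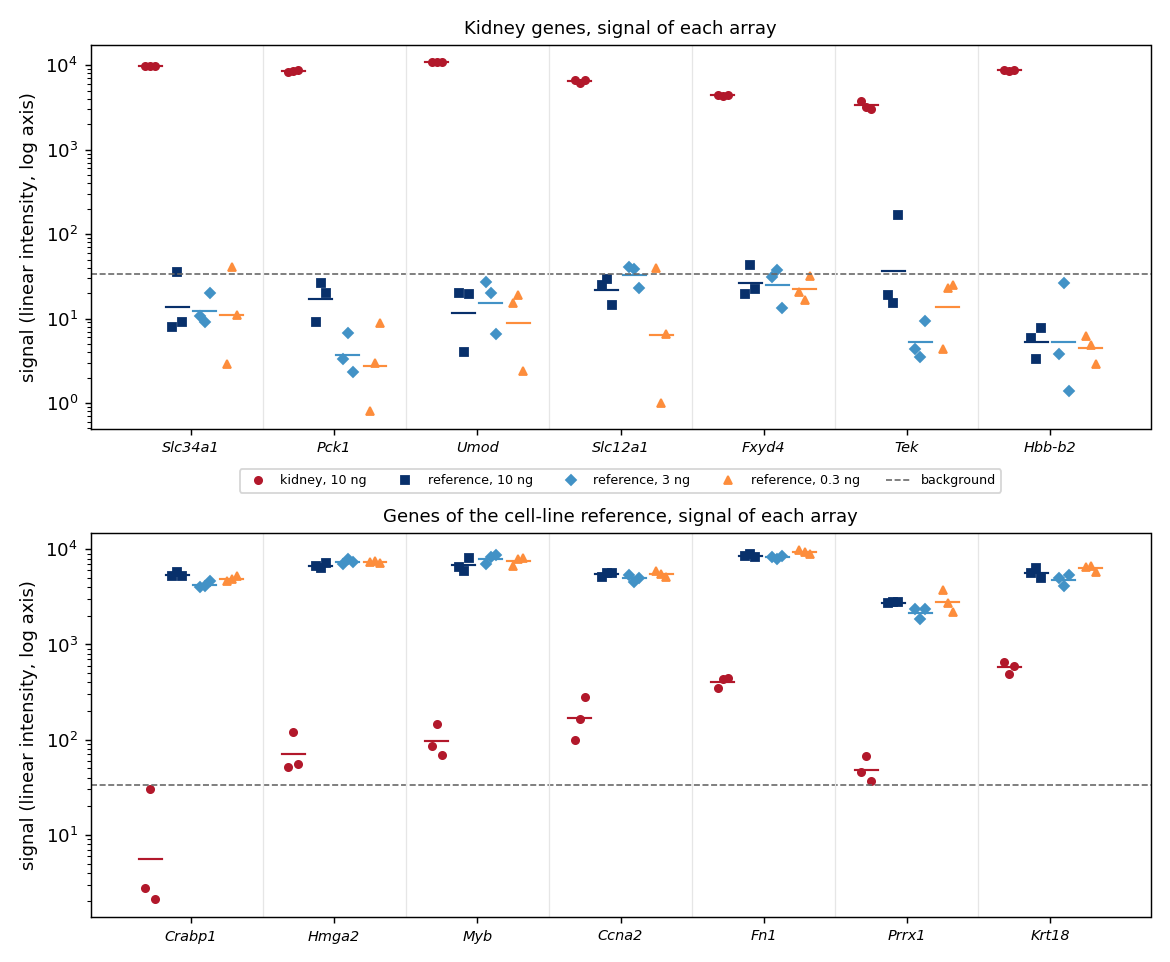
Signal of each array on a log axis for 7 kidney genes (top) and 7 genes of the cell-line reference (bottom). Points are single arrays of kidney at 10 ng and of the reference at 10, 3 and 0.3 ng, short bars are geometric means of 3 arrays, and the dashed line is the background of 33.65. Kidney points stand apart from every reference point in all 14 genes, at each input.

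Umod codes for uromodulin, the main protein of normal urine, made in the thick ascending limb. Its signal (gene 22242, chromosome 7) was 10819, 10818 and 10911 in kidney and 15.1, 18.9 and 2.4 in the 0.3 ng reference. Every reference array lay under background, so the difference was at least 322-fold (limma adjusted p = 0.000197). Slc12a1, the sodium-potassium-chloride transporter that loop diuretics block, read 6667, 6243 and 6668 in kidney and 39.4, 1 and 6.6 in the 0.3 ng reference. Only 1 of its reference values reached above background. Kcnj16, a potassium channel subunit, and Calb1, the calcium buffer calbindin of the distal tubule, were at least 298-fold and at least 163-fold higher in kidney. Kcnj1, the ROMK potassium channel, was the 1 uncalled member. It was dim in kidney too, at 81, 68.9 and 79.1, against 49.7, 83 and 15.6 at 0.3 ng (adjusted p = 0.299).

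In the proximal tubule, Slc34a1, the sodium-phosphate transporter, read 9896, 9824 and 9903 in kidney and 2.9, 40.5 and 11.1 in the 0.3 ng reference (log2 difference 9.22 ± 0.68 SE, adjusted p = 0.000504). Only 1 of the 3 reference values rose above background. Slc27a2, which activates very long chain fatty acids, was at least 348-fold higher, and Miox, the enzyme that breaks down inositol, read 12038, 12118 and 12163 against 43, 3.9 and 20.8. Hnf4a, a nuclear receptor of epithelial cells in kidney and liver, read 10738, 11031 and 11578 in kidney and 32.6, 10.2 and 12.7 at 0.3 ng, at least 330.2-fold apart. Its 10 ng reference values, 33.1, 30.4 and 41, straddled background. With values under background raised to it, the log2 difference was 8.37 at 0.3 ng and 8.27 at 10 ng.

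Collecting duct genes showed the same separation. Fxyd4, a regulator of the sodium pump, gave 4491, 4320 and 4463 in kidney against 20.5, 16.7 and 32, at least 131-fold. Slc14a2, the urea transporter of the inner medulla, was at least 95-fold higher, and Aqp4, a basolateral water channel, read 3712, 4258 and 4148 against 33.8, 2 and 3.8. Car2, carbonic anhydrase 2, had 5776, 5515 and 6053 in kidney and 18.9, 136 and 39 at 0.3 ng (adjusted p = 0.00124). Atp6v0d2, a proton pump subunit of intercalated cells, read 484, 438 and 404 in kidney and 320.2, 216 and 253 in the 0.3 ng reference. All 3 kidney values were the higher ones, yet the log2 difference of 0.75 ± 0.25 (SE) gave an adjusted p of 0.0625, against 0.00166 with the 10 ng reference.

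The 12 genes with the largest differences toward kidney took in the same kinds of function and, besides the tubule genes above, held secreted and binding proteins. Spink1, a secreted protease inhibitor, was at least 389-fold higher, Guca2b, the precursor of uroguanylin, at least 341-fold, and Cltrn, which carries amino acid transporters to the proximal tubule membrane, at least 361-fold. Gpx3, the plasma glutathione peroxidase that kidney secretes, read 14392, 14734 and 15089.5 in kidney and 30.5, 51.9 and 12.7 at 0.3 ng. S100g, a calcium-binding protein, read 13663, 14238 and 14329.9 against 57.1, 21.9 and 45.9 at 0.3 ng and 79.7, 111 and 104 at 10 ng. Its log2 difference was 8.36 at the low input and 7.12 at the high one, with no call between the reference inputs (adjusted p = 0.222). All 12 stayed called under each of the 10 settings with all arrays and the 6 with 1 array left out.

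Cltrn is shown by sequence because it stood at least 361-fold above the reference and holds, before 1 of its 2 listed starts, letters of the kind bound by HNF1 factors of the tubule. The stretch is the 200 bases before that start, chrX:164089987-164090186, plus strand, GRCm38.p6, from RefSeq, with the letters GTTAAT, any base and ATT in capitals, starting at position -54 from that start.
Cltrn: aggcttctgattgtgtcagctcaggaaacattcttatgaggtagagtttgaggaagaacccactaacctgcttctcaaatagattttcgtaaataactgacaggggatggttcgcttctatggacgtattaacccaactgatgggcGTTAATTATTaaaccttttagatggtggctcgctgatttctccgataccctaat
This motif was searched on both strands from 250 bases before to 50 after each start. It was in 8 of the 272 genes with a listed promoter among 372 that stood 5 or more log2 units higher in kidney, in 0 of 26 proximal tubule list genes, and in 0.470% of all 27025 genes of the promoter table. A match is a description of letters and not a bound site.

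Metabolic genes of the tubule were readable as well. All 23 fatty acid oxidation and peroxisome genes were called higher, with a median log2 difference of 2.72 (2.64 with values under background raised to it). Of 23 genes of amino acid breakdown and gluconeogenesis 19 were called higher, with a median of 6.29 (4.87). The share over all genes was 20.9%. Pck1, which commits carbon to glucose synthesis, read 8389, 8446 and 8701 in kidney and 0.8, 3 and 8.8 in the 0.3 ng reference, at least 253-fold apart. Fbp1, the next control point of that pathway, and Hgd, which degrades the tyrosine product homogentisate, were at least 306-fold and 218-fold higher. Cpt1a, the gate for fatty acids into mitochondria, is bright in the reference too. It read 6018, 5743 and 5509 in kidney, 897, 975 and 1199 at 0.3 ng and 1218, 989.7 and 1106 at 10 ng, and its log2 difference was 2.50 ± 0.22 (SE) at 0.3 ng beside 2.38 ± 0.13 (SE) at 10 ng.

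Ddc, the decarboxylase that makes dopamine in the tubule, scattered most plainly in the same list. Kidney read 1436, 1234 and 1313 and the 0.3 ng reference 1.5, 30.1 and 663, 1 array near background and another far above it. The log2 difference of 4.74 ± 1.70 (SE) was larger than the 3.21 ± 0.23 (SE) at 10 ng, but its adjusted p was 0.0795 against 0.000165. Bhmt, Prodh and Ass1 were the other uncalled members. Of 10 genes for the renin-angiotensin system and kidney hormones 9 were called higher, beside 20.9% of all genes. Their median was 5.18 (4.03 with raised values). Agt, angiotensinogen, read 703, 669.5 and 617 in kidney and 6.8, 4.5 and 6.1 at 0.3 ng. Pth1r, the parathyroid hormone receptor, read 3597, 3425 and 3942 against 7.6, 9.1 and 6.1 at 0.3 ng and 43.1, 58.4 and 156 at 10 ng, where all 3 values were above background. It was at least 108-fold higher than the 0.3 ng reference, and the log2 difference from the 10 ng reference was 5.56 (reference inputs compared, adjusted p = 0.0873).

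Cells other than tubule were read less evenly. Of 16 endothelial genes 11 were called higher, 8 to 13 when 1 array was left out, where all 16 were called at 10 ng. Over all genes 20.9% were called higher at 0.3 ng and 27.1% at 10 ng. Calls over all tested probe sets fell from 60.1 to 34.8%, so a fall alone is no trait of endothelial genes. Tek, the angiopoietin receptor, read 3799, 3195 and 3073 in kidney and 4.4, 23.3 and 24.9 in the 0.3 ng reference, at least 99.3-fold. Flt1, a receptor of vascular endothelial growth factor, read 2278, 2487 and 2708 in kidney, 2427, 2764 and 1109 at 0.3 ng and 1056, 1083 and 835 at 10 ng. Kidney was clear of every 10 ng value and inside the range of the 0.3 ng values, and the adjusted p went from 0.00101 at 10 ng to 0.533. Eng, an endothelial co-receptor, read 298, 338 and 285 in kidney and 63.6, 8.8 and 123 at 0.3 ng (adjusted p = 0.0558). Pecam1, Cdh5 and Ehd3 were the other members not called.

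Podocyte genes went both ways, 6 of 11 higher and 2 lower, beside 20.9% and 16.7% of all genes. Podxl, the surface sialoprotein of podocytes, read 3101, 3112 and 3146 in kidney and 439, 161 and 254 at 0.3 ng. Wt1, the podocyte transcription factor, read 834, 836 and 782 in kidney, 4098, 1539 and 1239.9 at 0.3 ng and 1278, 1457 and 1242 at 10 ng. It was lower in kidney at 10 ng (adjusted p = 0.00518) and had an adjusted p of 0.0921 at 0.3 ng, where the first array read highest. Dach1, another podocyte factor, was called higher with reference values of 112, 2.8 and 18.4. Of the macrophage genes 6 of 21 were called higher and 6 lower, beside the same shares of all genes. The complement genes C1qa, C1qb and C1qc were higher in kidney, C1qb at 6909, 7621 and 6898 against 4.8, 28.3 and 3.2, at least 212-fold. Ccl3 and Clec4d, which activated macrophages make, were lower, Ccl3 at 107, 112 and 73.5 against 7055, 6320.1 and 6514.

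Red cell RNA separated the groups too. Hbb-b2, an adult beta-globin, read 8853, 8634 and 8751 in kidney and 6.2, 4.8 and 2.9 at 0.3 ng, at least 259.9-fold, and Alas2, the first enzyme of haem synthesis in red cell precursors, was at least 7.06-fold higher. Hba-a2 read lower in kidney, 512, 519.6 and 497 against 895, 864 and 965, and its call was lost without any 1 kidney array. Both globin genes have near-identical copies, so their signals are uncertain. The 3 tested red cell genes summed to 9372 to 9633 in kidney and 889 to 970 in the 0.3 ng reference. The part of blood left in the tissue in any other difference was not tested.

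The reference pool stood out by dividing cells. Of 39 cell division genes 36 were called lower in kidney, none higher, with a median log2 difference of -3.98 (-3.34 with raised values). At 10 ng all 39 were called lower. Over all genes 16.7% were called lower at 0.3 ng and 35.6% at 10 ng. The summed signal of the list was 104281 to 107735 on the 0.3 ng arrays, 101009 to 103698 on the 10 ng arrays and 12007 to 14179 on the kidney arrays. Ccna2, cyclin A2, read 99.5, 167 and 282 in kidney and 5870.4, 5497 and 5079.7 in the 0.3 ng reference (log2 difference -5.00 ± 0.41 SE, adjusted p = 0.000677). At 10 ng its reference read 5085, 5704 and 5610.3, close to the values at 0.3 ng. Cenpa, the histone of centromeres, read 45.1, 50.6 and 56.8 against 1802, 1754 and 1146, and Kif11, the kinesin that pushes spindle poles apart, 34, 25.4 and 43.4 against 868, 1296 and 1377. Birc5, survivin, read 104, 162 and 145 against 7030.4, 3601 and 4412, with the first 0.3 ng array the highest.

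Members not called were Tyms, Foxm1 and Ccne1. Tyms, thymidylate synthase, read 51.5, 76.8 and 50.9 in kidney, 15.8, 66 and 44.5 at 0.3 ng and 137, 144 and 179 at 10 ng. Kidney lay under every 10 ng value and overlapped the 0.3 ng values, with a log2 difference of 0.63 ± 0.52 (SE) in place of -1.32 ± 0.21 (SE). Foxm1, a transcription factor of mitotic genes, read 125, 694 and 169 at 0.3 ng against 89, 6.2 and 28.9 in kidney (adjusted p = 0.068), and Ccne1, cyclin E1, 548, 367 and 215 against 41.3, 139 and 136 (adjusted p = 0.0566).

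Ccnb2, cyclin B2, is shown by sequence because CCAAT boxes before the start are a known trait of genes of mitosis, and 36 of the 39 genes were called the same way. The gene read 47.2, 33.8 and 79 in kidney and 560.4, 882 and 723 in the 0.3 ng reference (log2 difference -3.72 ± 0.37 SE, adjusted p = 0.00134). The stretch is the 200 bases before its start, chr9:70421555-70421754, minus strand, GRCm38.p6, from RefSeq, with CCAAT in capitals at -87, -54 and -21 and the letters TTTGAA, those of the cell cycle homology region, in capitals at -167.
Ccnb2: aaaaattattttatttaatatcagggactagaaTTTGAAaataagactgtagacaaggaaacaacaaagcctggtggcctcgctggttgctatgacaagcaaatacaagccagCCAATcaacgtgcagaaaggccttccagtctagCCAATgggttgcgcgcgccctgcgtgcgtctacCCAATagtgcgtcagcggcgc
Of the 32 cell division genes with a listed promoter 24 held CCAAT on either strand, beside 41.1% of all genes of the table. TTTGAA was in 16 of 32, beside 20.2%, and its variant TTCGAA in 4 of 32, beside 1.80%. In the proximal tubule list CCAAT was in 8 of 26, TTTGAA in 11 of 26 and TTCGAA in 0 of 26, so TTTGAA was common in both lists. The TTTGAA of Ccnb2 lies upstream of every CCAAT shown, and bases after the start are not shown. Here too a match is a description of letters and not a bound site.

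Matrix and mesenchymal genes were read nearly as fully. Of 29 such genes 25 were called lower in kidney, with a median of -2.29 (-2.31 with raised values), and 27 at 10 ng. The shares of all genes called lower were 16.7% at 0.3 ng and 35.6% at 10 ng. Every one of the 29 was above background on all 0.3 ng arrays. Fn1, fibronectin, read 352, 434 and 444 in kidney and 9739.8, 9317 and 8817 in the 0.3 ng reference (log2 difference -4.50 ± 0.22 SE, adjusted p = 0.000145). Prrx1, a mesenchymal homeobox factor, read 45.7, 67.5 and 37.2 against 3693, 2745 and 2185, and Mmp3, a matrix protease, 64.9, 93.6 and 49.5 against 1369.8, 1525 and 2009. Lox, which crosslinks collagen, read 308, 652 and 317 against 9321, 10158 and 10411. The uncalled members Thbs1 and Inhba were called at 10 ng, and Ccn2 and Pdgfrb were not. Thbs1, thrombospondin, read 1356, 449 and 475 at 0.3 ng, where the first array was far above the others, and 257, 289 and 317 in kidney, with no overlap (adjusted p = 0.105).

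The 12 genes with the largest differences toward the reference were bright there at both inputs. Crabp1, a binder of retinoic acid (gene 12903, chromosome 9), read 2.8, 30.4 and 2.1 in kidney and 4674, 4889 and 5183 at 0.3 ng, at least 146-fold. Hmga2, an embryonic chromatin protein, read 52.1, 120.1 and 55.9 against 7429.7, 7446 and 7220.1, and Myb, a factor of blood precursors, 85.9, 148 and 69.8 against 6713, 7998 and 8119. Ereg, epiregulin, a ligand of the epidermal growth factor receptor, Ncapg, a condensin subunit, Eno2, an enolase of neurons, Mycl and Ccl3 had log2 differences of -7.52, -6.08, -6.10, -6.05 and -6.05. Rpl39l and H3f3b also passed the rule but have near-identical copies elsewhere in the genome, so their signals are uncertain. Dlx2, a homeobox factor, read 2077, 1619.7 and 7289 at 0.3 ng and 2211, 2628 and 3021 at 10 ng, so that its last 0.3 ng array stood above all 10 ng arrays.

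Cdc25c, the phosphatase that starts mitosis, entered these 12 through raised values at the low input. It read 3729, 2934 and 884 at 0.3 ng, 625, 667 and 600 at 10 ng and 316, 604 and 406 at 3 ng, with kidney at 2.2, 3.2 and 2.6. The difference from kidney was at least 63.3-fold at 0.3 ng and at least 18.7-fold at 10 ng, and the reference inputs did not pass when compared (adjusted p = 0.233). All 12 genes stayed called under the same 10 settings and with any 1 array left out.

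Markers of muscle, germ line and lymphocyte lines in the pool went both ways. Of 12 myoblast and muscle genes tested, from 20 with a probe set, 5 were called lower in kidney at 0.3 ng and 9 at 10 ng. In this list 1 was called higher at both inputs. Of 8 pluripotency and germ line genes tested, from 18 with a probe set, 1 was called lower and 1 higher at 0.3 ng. This share of lower calls was no larger than the 16.7% of all genes. At 10 ng 4 were called lower and 1 higher. Of 13 T lymphocyte genes 5 were called lower (2 without any 1 kidney array) and 3 higher. Of 11 B lymphocyte genes 4 were called lower (2 without any 1 kidney array) and 2 higher. The higher calls in both lymphocyte lists were near the 20.9% of all genes called higher. Myf5, the earliest myoblast factor, read 1.6, 1.1 and 0.8 in kidney, 945, 776 and 573 at 0.3 ng and 1477, 1282 and 1416 at 10 ng, and was at least 22.3-fold lower in kidney. Pax3, a factor of muscle precursors, read 483, 332 and 384 at 0.3 ng against 1330.1, 1059 and 1482 at 10 ng, and remained at least 11.7-fold above kidney. Ms4a1, the B cell antigen CD20, read 18.7, 59.4 and 7.5 in kidney and 525, 502 and 437 at 0.3 ng. Cd28, a T cell co-stimulator, read 1752, 260.4 and 217, with the first array several times the others, and its call (adjusted p = 0.0359) was lost without any 1 kidney array or without the second 0.3 ng array.

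Epithelial genes of the skin and mammary list went both ways. Krt18, a keratin of simple epithelia, read 661, 496 and 595 in kidney and 6488, 6709 and 5723 at 0.3 ng, and was lower in kidney. Cdh1, E-cadherin, was higher in kidney at 7248, 7405 and 6868, against 19.3, 32.4 and 52.6 at 0.3 ng and 110.1, 156 and 200.1 at 10 ng. In all, 6 of 20 were called higher (3 without any 1 kidney array) and 4 lower, against 10 and 6 at 10 ng. Over all genes 20.9% were called higher and 16.7% lower at 0.3 ng, and 27.1% and 35.6% at 10 ng. The lower calls of this list were thus near the share of all genes at both inputs. Of 12 hepatocyte genes 9 were called higher in kidney and 1 lower. Ttr, transthyretin, read 9876, 9482 and 9689 in kidney and 100.3, 45.5 and 8.4 at 0.3 ng, where 2 of 3 arrays rose above background while the 10 ng arrays read 7.4, 8.4 and 10.1. Afp, the fetal serum protein, read 45.2, 74.3 and 0.8 against 767, 782 and 461 and was the 1 called lower, a call lost without the first kidney array or without the first or second 0.3 ng array.

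Ribosomal and mitochondrial genes were bright, with smaller median differences than the tubule and cell division lists. Of 40 ribosomal protein genes 34 were called lower in kidney at 0.3 ng and 33 at 10 ng, with medians of -0.87 and -0.55. The count at 0.3 ng was 8 without any 1 kidney array and 11 under quantile normalization, where the median was -0.45. The median kept its sign under both scalings tried. Rplp0 read 3975, 3971 and 4030.3 in kidney, 12186, 10751 and 10894 at 0.3 ng and 9498, 10494 and 8474 at 10 ng. Of 78 oxidative phosphorylation genes 21 were called higher and 2 lower, where 49 and 4 were at 10 ng. Without any 1 kidney array 9 or 10 were called higher. Over all genes 20.9% were called higher and 16.7% lower at 0.3 ng, and 27.1% and 35.6% at 10 ng. Calls over all tested probe sets fell as well, from 60.1 to 34.8%, so a fall alone is no trait of these genes. Uqcrfs1, an iron-sulfur subunit of complex III, read 3389.9, 3530.4 and 3550.1 in kidney and 637, 716 and 556 at 0.3 ng (log2 difference 2.46 ± 0.22 SE, adjusted p = 0.000867). Of 14 housekeeping genes 6 were called lower (3 without any 1 kidney array) and 1 higher. Actb, beta-actin, was not called at 13923, 15002 and 14362 in kidney against 23937, 21707 and 22209 (adjusted p = 0.0543), and its 10 ng reference values were 15633, 17145 and 16541.

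**Figure D2:**
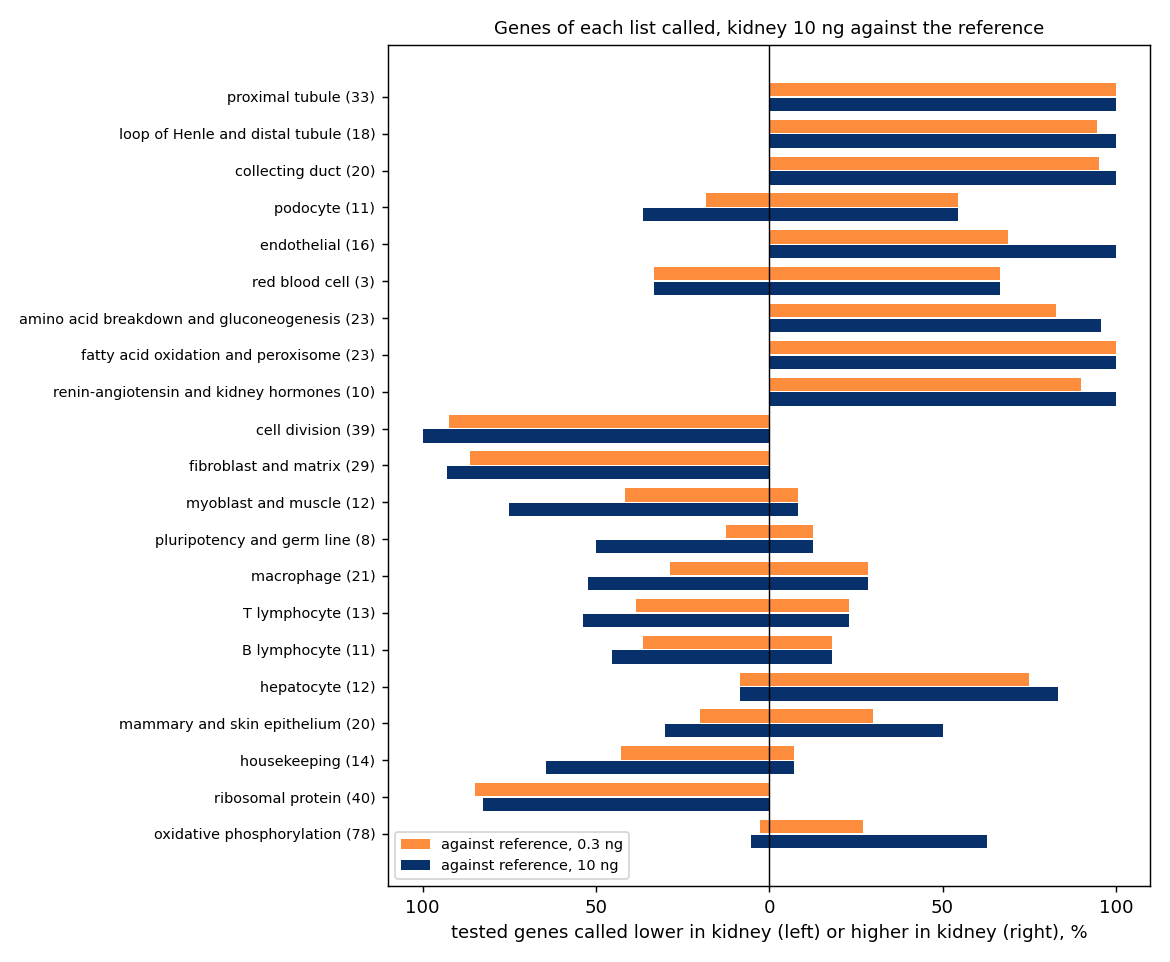
Share of tested genes of each list called lower (left) or higher (right) in kidney, against the reference at 0.3 ng (orange) and at 10 ng (blue), with the number of tested genes in brackets. Proximal tubule genes were at 100% higher with both inputs, and oxidative phosphorylation fell from 62.8 to 26.9%. Over all genes, not drawn, 27.1% were called higher at 10 ng and 20.9% at 0.3 ng.

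How much of the reference stayed readable depended on its level. Among probe sets with a 10 ng mean above 3000, 100% had all 3 of the 0.3 ng arrays above background, and among those between 1000 and 3000, 99.6%. The share was 95.4% between 300 and 1000, 71.0% between 100 and 300, and 25.7% between background and 100. For the 10 ng arrays themselves the last 3 shares were 100, 99.4 and 57.1%, and for the 3 ng arrays 99.9, 96.4 and 52.9%. The bins rest on the 10 ng signal, so its own shares are a description. The median SD of log2 signal at 0.3 ng rose from 0.19 above 3000 to 0.47, 0.69, 0.89 and 0.94 in the lower bins. By gene, 11727 were above background on all 10 ng arrays, and 84.4% of these were so on all 0.3 ng arrays and 94.8% on all 3 ng arrays.

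**Figure D3:**
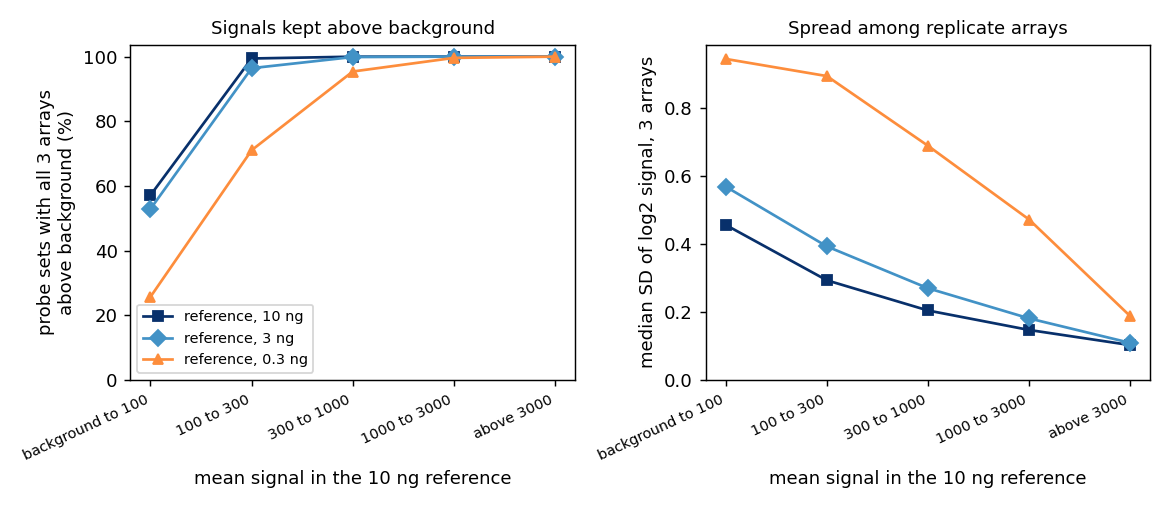
Left, percent of probe sets with all 3 arrays above background. Right, median SD of log2 signal over 3 arrays. Both are plotted by the mean signal in the 10 ng reference (bins of linear intensity) for the reference at 10, 3 and 0.3 ng. At 0.3 ng the share falls to 25.7% and the SD reaches 0.94 in the dimmest bin shown, while the 3 ng points stay near the 10 ng points.

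Some genes read within 1 log2 unit of the 10 ng reference in kidney, while their signal in the 0.3 ng reference was lost. A gene was counted as lost when all kidney and all 10 ng reference arrays were above background, the kidney mean was within 1 log2 unit of the 10 ng mean, and all 0.3 ng arrays were under background. There were 56 such genes among 18193, with a median 10 ng signal of 70.7. Of the 45 that were tested 40 were called higher in kidney against the 0.3 ng reference, where 20.9% of all genes were, a count that the choice of these genes largely fixes. The 3 ng arrays, which had no part in the choice, were all above background in 31 of the 56 and all under it in 2. With the 3 ng arrays in the place of the 0.3 ng ones, 3 genes met the definition. The count also depended on single arrays and scaling, being 94 to 123 without any 1 of the 0.3 ng arrays and 32 after quantile normalization.

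Gab2, an adaptor of growth factor receptors, was present in both RNAs. It read 385, 210 and 259 in kidney, 174, 155 and 211 in the 10 ng reference and 94.4, 120.1 and 125 at 3 ng. At 0.3 ng the 3 arrays gave 8.8, 2.4 and 5.8, all under background, and the reference was at least 5.3-fold lower than at 10 ng (limma adjusted p = 0.0164). Kidney then stood at least 8.19-fold above the reference, against a log2 difference of 0.62 at equal input. Gtdc1, a glycosyltransferase-like gene, read 169, 327 and 226 in kidney, 138, 177 and 190.2 at 10 ng, 105, 90.7 and 91.2 at 3 ng and 3.5, 6 and 4 at 0.3 ng. Its 3 ng values were lower than those at 10 ng and far above background. Mmp23, a membrane metalloprotease, read 162, 95.9 and 223 in kidney and 5, 4 and 3.7 at 0.3 ng, with 439.6, 301 and 128 at 10 ng and 149, 170.5 and 191 at 3 ng. A second Mmp23 probe set was lost on 1 array only, at 53.4, 4.1 and 34.3 at 0.3 ng.

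Slc6a15, a transporter of neutral amino acids, held the closest replicates of these examples. Kidney read 153, 128 and 156, the 10 ng reference 115, 129 and 127 and the 0.3 ng reference 18.6, 16.9 and 18.2. The 3 low values lay close together, and limma called the gene at an adjusted p of 0.000552. Irak3, a brake on Toll-like receptor signalling, read 97.5, 101 and 150.1 in kidney, 82.8, 101 and 291 at 10 ng and 25.7, 22.7 and 22 at 0.3 ng (adjusted p = 0.00259). The others of the 8 brightest were C630043F03Rik, 1500015A07Rik and Grhl1, in kidney at least 5.41-fold, 2.44-fold and 2.09-fold above the 0.3 ng reference, with log2 differences of 0.10, -0.86 and -0.75 against the 10 ng reference. Of the 56 genes 6 had further probe sets of their own, 7 in all, of which 2 lay under background on all 0.3 ng arrays and none above it on all. The second Gtdc1 probe set did not repeat the loss, at 26, 47.2 and 71.1 at 0.3 ng against 84.4, 46.3 and 45.6 at 10 ng.

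A larger group scattered instead of vanishing. In 267 genes all 10 ng reference arrays were above background while the 0.3 ng arrays lay on both sides of it, over a range of 3 or more log2 units. The 3 ng arrays were all above background in 242 of these. With the 3 ng arrays in their place 15 genes met the same definition. The first 0.3 ng array alone was under background in 144 genes, the second alone in 38 and the third alone in 50. Without the first array 71 genes scattered, without the second 157 and without the third 116. With fewer arrays this rule is harder to meet, so the counts could only fall. Only 26 of 265 tested were called against kidney, 19 of them higher in kidney, beside 20.9% of all genes higher and 16.7% lower. The choice of genes by their range raises the standard error, so this low share is largely fixed by the choice.

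Trim21, a ubiquitin ligase that binds antibodies inside cells, was the brightest of these. It read 2008, 2210.3 and 2224 in kidney, 2287, 2063 and 2112 in the 10 ng reference and 2195, 1726 and 2153 at 3 ng. At 0.3 ng it read 19, 845 and 857, with the first array under background and the others below every 10 ng value. The log2 difference from kidney was 3.07 ± 1.46 (SE, adjusted p = 0.157) against -0.0046 at equal input, and it passed the threshold when the first array was left out. A second Trim21 probe set read 78, 59.1 and 66.7 in kidney and 36.3, 73.3 and 5.8 at 0.3 ng. Tmem101 had only the first 0.3 ng array under background, at 29.6, 1476 and 850, as did St3gal5, the enzyme that makes ganglioside GM3, at 33.5, 2095 and 1201.

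Scattered genes also included some that were far lower in kidney at equal input. Dppa2, a gene of pluripotent and germ cells, read 0.8, 1.2 and 23.1 in kidney, 1132, 1311 and 1218 at 10 ng and 31.2, 25.1 and 2342 at 0.3 ng, where only the third array rose above background. It was at least 36.2-fold lower in kidney at 10 ng, and had an adjusted p of 0.154 at 0.3 ng. Cntn3, a neural adhesion protein, read 59.9, 40.6 and 22.7 in kidney, 1297, 769 and 1415 at 10 ng and 2.5, 787 and 982 at 0.3 ng. Its second probe set was above background on all 0.3 ng arrays, at 84.9, 194.5 and 109. Nckap5 read 23.8, 45.7 and 4219.9 at 0.3 ng against 1003, 880 and 652 at 10 ng, so the third array stood far above every 10 ng value. Rab26os read 31.3, 926 and 115 at 0.3 ng and 1685, 1335 and 1709 at 10 ng, and A630026N12Rik 77, 4.7 and 326 and 771, 921 and 1038.

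In 16 genes the direction turned by the mean signals, though kidney was above background on all arrays in only 8 of them. Kidney lay below all 10 ng reference arrays and above all 0.3 ng arrays, with no overlap and with mean log2 signals 1 unit or more apart. The 3 ng arrays were all above background in 12 of them, and 1 gene met the definition with the 3 ng arrays. Adgrl3, an adhesion receptor of neurons, read 124, 159 and 299 in kidney, 304, 377 and 592 at 10 ng, 277, 481 and 475 at 3 ng and 3.3, 2.2 and 1.1 at 0.3 ng. Kidney was at least 5.38-fold higher than the 0.3 ng reference (adjusted p = 0.000601), and its log2 difference from the 10 ng reference was -1.15. A second Adgrl3 probe set read 16.6, 20.3 and 22 at 0.3 ng and 64, 108.7 and 201.5 at 10 ng. Pde5a, the phosphodiesterase of cyclic GMP, read 228, 103 and 296 in kidney, 397, 445 and 337 at 10 ng and 1.2, 27.2 and 14 at 0.3 ng.

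Orc2, a subunit of the replication origin complex, was the brightest of the turned genes at 923, 1123 and 721 in the 10 ng reference. It read 308, 525 and 310.2 in kidney and 97.4, 283 and 45.7 at 0.3 ng (adjusted p = 0.101), and both of its further probe sets overlapped between kidney and the 0.3 ng reference, at 95.5, 82.4 and 51.3 against 103, 66.8 and 74.5 in the first. Zc3h8, a zinc finger gene, read 86.2, 135 and 127 in kidney, 656, 517 and 560.4 at 10 ng and 42.5, 27.8 and 67 at 0.3 ng. Its call (adjusted p = 0.0421) was lost without any 1 kidney array, without the first or the second 0.3 ng array, and under 5 of 10 settings that kept all arrays. Of the 16 genes 14 were tested and 6 called, all higher in kidney, where 20.9% of all genes were. The choice of genes with kidney above every 0.3 ng array favours such calls, so they are no independent support. Lrp2bp, Pif1, Styk1 and Bcl2l12, the others of the 8 brightest, were not called. A second Pif1 probe set did not turn, at 4.3, 19.4 and 6.2 in kidney against 22.7, 26.1 and 2.9 at 0.3 ng. The count was 35 to 39 without any 1 of the 0.3 ng arrays. In the opposite direction there was 1 gene, 2310057N15Rik, with all kidney and reference values under background and so no readable order.

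**Figure D4:**
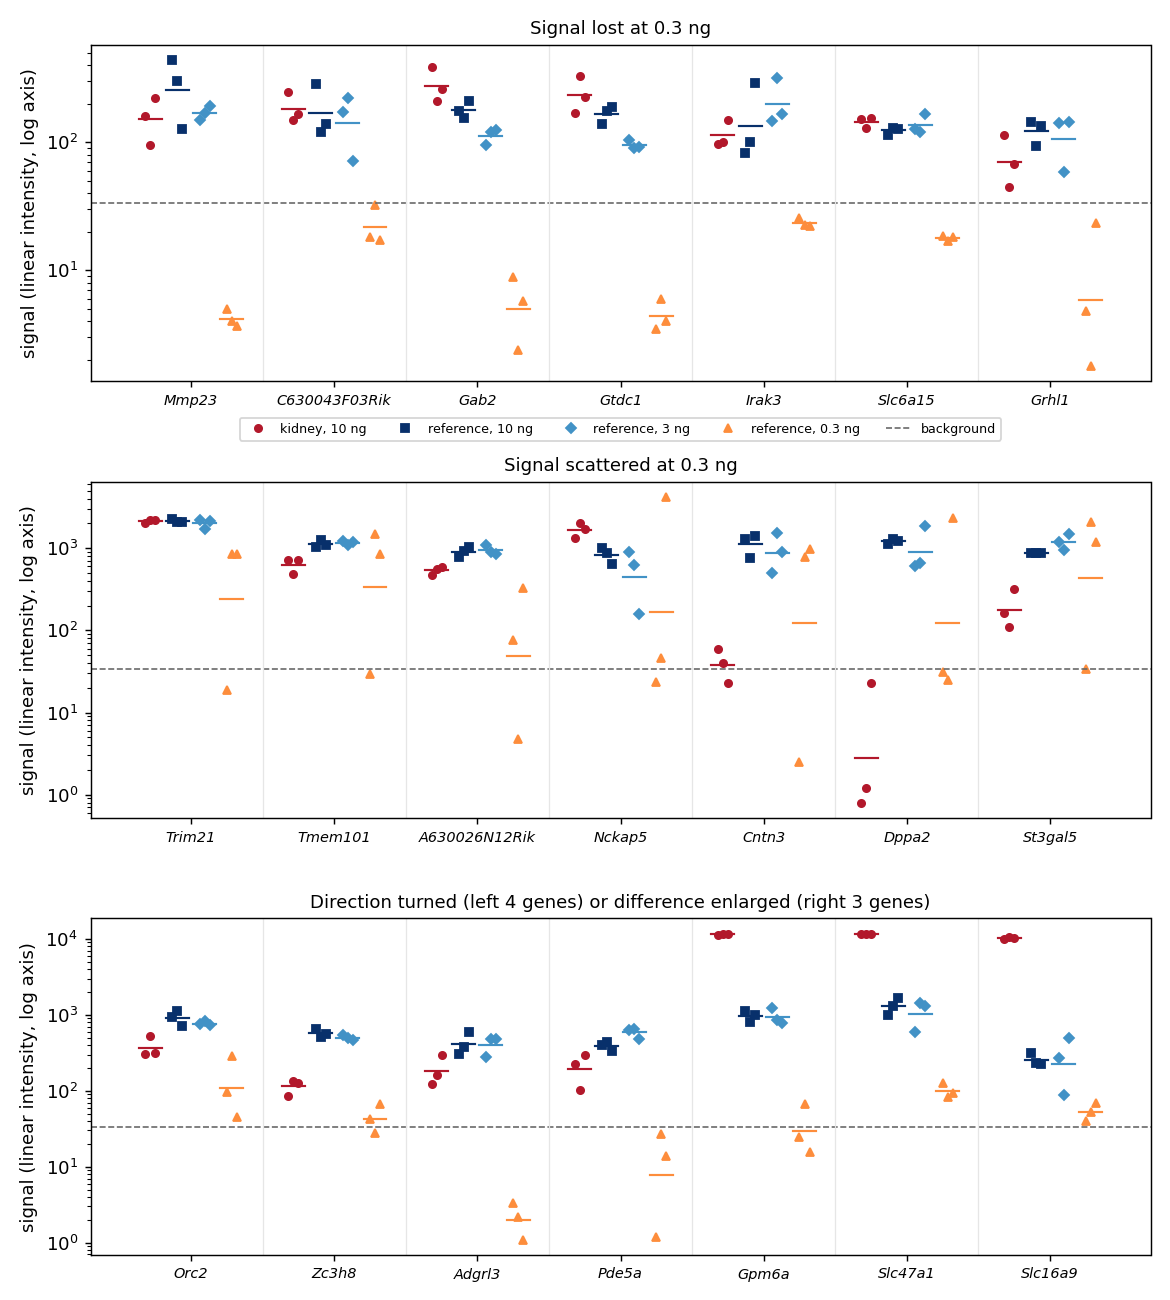
Signal of each array on a log axis for genes whose reference signal was lost (top), scattered (middle), or turned or enlarged the difference (bottom). Points are single arrays, short bars geometric means of 3 arrays and the dashed line the background of 33.65. In the top panel all kidney, 10 ng and 3 ng points lie above the line and all 0.3 ng points below it.

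A further 45 genes were hidden, all above background in the 10 ng reference and under it in kidney and in the 0.3 ng reference. Spdya, an activator of cyclin-dependent kinases, read 535, 118 and 187 at 10 ng, 30.9, 31.5 and 21.1 at 0.3 ng and 10.1, 6.9 and 12.8 in kidney, and its call in this comparison (adjusted p = 0.0235) was between values under background. Ccn6, a matrix protein, read 168, 132 and 264 at 10 ng and 17.7, 5.2 and 8.2 at 0.3 ng. Dio2, which activates thyroid hormone, read 118, 139 and 73.1 at 10 ng and 5.1, 18 and 27.5 at 0.3 ng, and the transcription factor Zic1 read 193, 43.3 and 146 and 21.6, 2.6 and 24.3. The 3 ng arrays were all above background in 17 of the 45 and all under it in 9, and 16 genes were hidden with the 3 ng arrays in place.

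The reverse was rarer at 0.3 ng in the deposited scaling. There were 38 gained genes, with all 0.3 ng arrays above background and all 10 ng arrays under it, beside 211 that went the other way at any kidney level. With the 3 ng arrays these counts were 70 and 39. After quantile normalization 109 genes were gained, while the lost genes of the narrower definition above fell from 56 to 32. The 211 were not recounted there, so an excess of loss over gain is not shown under that scaling. 2610316D01Rik, the brightest at 0.3 ng, read 89.2, 356 and 100.5 there and 23.3, 9.4 and 30.2 at 10 ng. Col13a1, a transmembrane collagen, read 118, 62.9 and 36.3 at 0.3 ng, 9, 24.6 and 5.9 at 10 ng and 52.4, 212 and 168 in kidney. In kidney it was at least 3.66-fold above the 10 ng reference, and its values overlapped those at 0.3 ng. Of the 38 genes 9 were tested and 3 called. These were 2610316D01Rik, lower in kidney, a call lost with array weights and without the second or the third kidney array, and Ace and Oxgr1, higher and named here after their values were seen. Ace, which makes angiotensin II, read 419, 397 and 463 in kidney, 50, 56.1 and 77.7 at 0.3 ng and 14.7, 21.2 and 32.9 at 10 ng.

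Among genes bright in kidney, a lower reference signal at 0.3 ng made the difference larger than at equal input. Both differences use the same kidney arrays, so this follows by arithmetic and is no separate result. Of the 12820 genes 70 were called lower in the 0.3 than in the 10 ng reference (0.546%), with a median log2 change of -3.13 (-2.19 with values under background raised to it). In 48 of them all 0.3 ng arrays lay under background, in 54 all 3 ng arrays above it, and in 22 kidney lay above every reference array at both inputs. The examples that follow were chosen after their values were seen, as the brightest in kidney. Gpm6a, a membrane glycoprotein, read 11325, 11655 and 11645 in kidney, 1107, 814 and 1008 at 10 ng, 1212, 845 and 779.6 at 3 ng and 24.3, 67.5 and 15.7 at 0.3 ng. Its log2 difference from the reference was 3.57 at 10 ng and 8.41 at 0.3 ng, and the change between reference inputs had an adjusted p of 0.0299.

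Slc47a1, the exporter of organic cations into urine, read 11491, 11506 and 11456 in kidney, 1009, 1293 and 1669.7 at 10 ng and 126, 82.1 and 94.8 at 0.3 ng, where all values stayed above background. The log2 difference was 3.14 at 10 ng and 6.80 at 0.3 ng. Slc16a9, a carnitine and creatine transporter, was the 1 gene among all lists called between the reference inputs (adjusted p = 0.0467), at 315, 232 and 224 in the 10 ng and 40.3, 53.3 and 69.4 in the 0.3 ng reference. Aplnr, the apelin receptor, read 2514, 3443 and 2926 in kidney, 609.5, 394 and 275 at 10 ng, 16.2, 115 and 34.4 at 3 ng and 6.7, 6 and 5.4 at 0.3 ng. Its 3 ng values already lay below all 10 ng values. P3h2, Sntb1 and Lrrc3 were at least 117-fold, 96.1-fold and 68.8-fold above the 0.3 ng reference, with log2 differences of 6.33, 3.92 and 4.57 at 10 ng. Pofut2, which adds fucose to secreted proteins, read 1442, 1194 and 3301 in kidney, overlapping 3449.6, 3072 and 2543 at 10 ng and above 679, 758 and 890.5 at 0.3 ng.

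The 1 gene called higher at 0.3 ng was Ddx11, a DNA helicase. It read 1643, 2108 and 2198 at 0.3 ng, 276, 319.7 and 282 at 10 ng, 181, 185 and 327 at 3 ng and 24.3, 33.4 and 1.6 in kidney. The 0.3 ng values lay above all other arrays without overlap, and the log2 change between reference inputs was 2.74 ± 0.24 (SE, adjusted p = 0.0172). Kidney was at least 58.5-fold below the 0.3 ng reference and at least 8.67-fold below the 10 ng reference. Ddx11, Gpm6a, Slc47a1, Slc16a9 and the other calls between reference inputs were all lost when any 1 of the 10 ng arrays was left out.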

How the data were processed

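The deposited intensities, 1 linear value per probe set and array, were used as the authors gave them. How probe sets were summarised, background corrected and amplified is not given in the sources used here, and the values show a 2% trimmed mean of 500 on each array. Genes were named from the platform's annotation table. Of 45101 probe sets 34945 named 1 gene, 932 several and 9160 none, and 64 controls were left out. A gene was represented by its own probe set of highest mean log2 signal. Background, 33.65, is the 95th percentile of signals of the 27 control probe sets for Bacillus genes. A fold whose dimmer group had no array above it is a lower bound, taken against it.

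Differences are of log2(signal + 3.9), fitted on the 6 arrays compared by limma 3.58.1 (lmFit, eBayes) in R 4.3.3, without covariates, for 27022 probe sets whose highest group mean passed a signal of 65.4. P-values are two-sided and Benjamini-Hochberg adjusted over these, with a threshold of 0.05. Adding 3.9 understates the change of dim genes. The fit takes 1 spread for both groups, which the 0.3 ng arrays exceed. Array number limits the precision, with 3 arrays in each group. The fits were tested on simulated data. A difference that was not called is not shown to be absent, least of all against the scattered 0.3 ng arrays. Lists are described by counts and medians of their tested genes, with no set test. A gene dim in 1 group can pass the filter through the group where it is high, which favours a call. Named genes were the 12 largest called differences in each direction without overlap (values under background raised to it), up to 4 called members of a list in its leading direction and 2 in the other, and the 8 brightest of each class, beside other list members named after their values were seen. Members, lists and rules were chosen with earlier results of these data known. Alternatives were scaling, pseudocount, filter, array weights, pooled fit, replicate block and leaving out single arrays.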

Additional observations from a re-analysis of the deposited data

Results flagged for a closer look

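The following genes changed their difference from kidney between the reference inputs, by limma's test of the 0.3 ng against the 10 ng reference at an adjusted p under 0.05. They were named for such values in the first place, so the test is no independent support, and each call was lost without any 1 of the 10 ng arrays. Values are log2 changes of the reference from 10 to 0.3 ng. Where every 0.3 ng array lay under background the value is not exact, and the fall that can be read, taken against background, follows it as a lower bound. Among lost genes they were -5.01 for Mmp23 (at least 7.63-fold), -4.36 for Gtdc1 (at least 4.95-fold), -4.31 for Gab2 (at least 5.3-fold), -2.63 for 1500015A07Rik (at least 4.54-fold) and -2.55 for Slc6a15 (at least 3.68-fold). Among hidden genes they were -3.79 for Ccn6 (at least 5.36-fold), -3.36 for Gm13238 (at least 3.81-fold) and -2.33 for AU018091 (at least 4.01-fold). Among turned genes they were -6.09 for Adgrl3 (at least 12.1-fold), -5.12 for Lrp2bp (at least 9.44-fold), -4.06 for Pif1 (at least 8.14-fold) and -3.62 for Zc3h8. Among genes bright in kidney they were -5.36 for Aplnr (at least 12-fold), -4.84 for Gpm6a, -4.82 for Sntb1 (at least 6.22-fold), -3.66 for Slc47a1, -3.04 for Lrrc3 (at least 2.78-fold), -2.18 for Slc16a9, -1.97 for P3h2 (at least 1.34-fold) and -1.95 for Pofut2. Ddx11 was the 1 that rose, by 2.74.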

How the results depend on the processing

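Kidney against the 0.3 ng reference called 9414 probe sets. The 10 settings that kept all arrays gave between 6660 (replicate block) and 13364 (all 12 arrays in 1 fit), within 1.5 times, and no called probe set turned its sign except 9 with values raised to background. Leaving out 1 array gave 5516 to 10245. Kidney against the 10 ng reference stayed within 1.5 times of 16246, with 14650 under the replicate block. There, 38.2% of calls were higher in kidney, and 49.1% with arrays centred on their medians. Such centring moved the median difference of all tested probe sets from -0.34 to -0.09 and, against the 0.3 ng reference, from -0.06 to -0.25. Quantile normalization moved the first to -0.21.

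The 0.3 against the 10 ng reference called 215 probe sets by limma, but 1571 with all arrays in 1 fit, 561 with values raised to background, 127 with the filter on the mean of all arrays, 79 with arrays centred on their medians, 76 without a filter, 75 under quantile normalization, 69 with array weights by group, and 0 under the replicate block (3483 at an unadjusted p under 0.05). Leaving out 1 array gave 0 to 595. Same-numbered arrays did not deviate together (correlations of -0.0145 to 0.0118), and the main fits used no pairing. Whether such arrays were processed together cannot be told from this, and the titles give only a number. The paired values stand here only.

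Of the lists, T lymphocyte calls in the leading direction went from 5 to 8 (all arrays in 1 fit), 3 (replicate block) and 3 (no filter), endothelial from 11 to 7 and red blood cell from 2 to 1 (filter on the mean of all arrays), housekeeping from 6 to 3 (replicate block), ribosomal protein from 34 to 6 (replicate block), 11 (no filter) and 11 (quantile normalization), and oxidative phosphorylation from 21 to 33 (all arrays in 1 fit), 11 (replicate block), 12 (arrays centred on their medians) and 12 (no filter). With 1 array left out the counts were 2 to 5 for T lymphocyte, 2 to 4 for B lymphocyte, 3 to 9 for mammary and skin epithelium, 3 to 6 for housekeeping, 8 to 34 for ribosomal protein and 9 to 24 for oxidative phosphorylation. The other counts of list calls, 197 with all arrays and 108 with 1 left out, stayed within 1.5 times. Of the 95 called list genes named by the rule 77 kept the call under all settings, and none turned its sign.

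Level classes moved under many settings. Lost genes (56) were 32 under quantile normalization, 138 over every probe set, 3 with the 3 ng arrays, 211 at any kidney level, and 94 to 123 with 1 of the 0.3 ng arrays left out. Gained genes (38) were 24 with background at the 99th percentile, then 109, 84 and 70 under the first 3 of those settings and 105 to 131. Scattered genes (267) were 550 over every probe set, 15 with the 3 ng arrays and 71 to 157. Hidden genes (45) were 25, 113, 16 and 69 to 84. Genes turned toward kidney (16) were 10, 43, 1 and 35 to 39, and those turned the other way (1) were 4 over every probe set, 0 with the 3 ng arrays and 1 to 4. For lost, gained, hidden and turned genes, a rule over fewer arrays is easier to meet. For scattered genes it is harder to meet. With background at the 99th percentile the readable shares were 0.621% in place of 2.09% for probe sets under background at 10 ng, 14.9% from background to 100, 61.8% from 100 to 300 and 93.8% from 300 to 1000.

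The use of the 3 ng arrays, and of any kidney level, was chosen after seeing the data. No depth exists for arrays. Near background, signals have no order, and with 3 arrays a loss of signal that is alike on all 3 cannot be told from absence.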
